A study of Mus musculus with 4 samples.

Results

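Macrophages are recognised on expression arrays by a shared set of surface receptors, immunoglobulin receptors, complement proteins and lysosomal enzymes. A set of 36 such genes was followed across 4 arrays of lamina propria lymphocytes from mouse gut. Members were chosen by gene symbol, by a rule that uses no measured value but was written with earlier results of these data known, and their probes were found through the RefSeq accession of each probe. Of the 36 genes, 34 had a matched probe, out of 20659 genes that could be named on the arrays. Cd68 and Clec7a matched no probe by this route and are not analysed here. The 34 genes had 42 probes: 28 genes had 1 probe and 6 genes (Adgre1, C3, Csf1r, Cx3cr1, Itgam and Msr1) had several.

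All groups consisted of C57BL6 mice given dextran sulfate sodium (DSS), which damages the colonic epithelium and is used to model colitis, and cells were taken on day 10. The mice were either wild type or Stat4-/-, and in each genotype 1 group had received DSS and 1 group DSS and LIF. LIF is leukemia inhibitory factor, a secreted protein that signals through gp130. Stat4 is a transcription factor activated downstream of interleukin-12. Each of the 4 groups had 1 array. The labels report 5 mice per group without saying whether their RNA was pooled, and they describe neither the Stat4 allele, the LIF dose nor the ages of the animals. The 4 comparisons (genotype under each treatment, LIF in each genotype) therefore have no replicate, and no p-value was computed. Every comparison shares 1 array with each of 2 others.

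Macrophages engulf particles and antibody-coated targets. Antibody complexes are bound by Fc receptors, of which the activating ones need the signalling adaptor Fcer1g, and TREM2 signals through the related adaptor Tyrobp. C1q, made in tissues mainly by macrophages, starts the classical complement cascade, C3 is its central component, and the fragments it releases are sensed by C3ar1 and C5ar1. In the gut the resident macrophages depend on the receptor Csf1r and are replenished from blood monocytes, and many of the same receptors are also carried by neutrophils and dendritic cells.

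Levels are given as the log2 processed signal minus the 75th percentile of the array, so that 0 is the brightness of a probe at that percentile and a difference of 1 is 2-fold. Each gene was taken by its brightest probe. Levels are compared between arrays for the same probe and never between genes. The value after ± is the error that the image-analysis software assigned to the spots (1 SD), which covers technical error within an array alone. For the measured differences of members it lay between 0.20 and 0.39. In these bulk samples fewer cells of a type and less RNA per cell cannot be told apart.

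The arrays differed in brightness, and 1 of them stood apart. Probes well above background made up between 37.6% (wild type with DSS and LIF) and 61.7% (wild type with DSS) of 39429. Over 12674 probes above background everywhere, the LIF-treated wild type array correlated at r = 0.800 to 0.818 with the rest, and the other 3 arrays at 0.951 to 0.980 among themselves (probes are not independent replicates). Both DSS arrays came from a shared scan and the other 2 from separate scans. The Stat4 probe read -0.49 and 0.31 in wild type and Stat4-/- with DSS, and 0.21 and -0.48 with DSS and LIF, and thus did not tell the genotypes apart. The place of this probe relative to the deletion is unknown here, so the Stat4-/- arrays are called labelled knockout below. Although the cells are labelled as lymphocytes, 9 of 9 epithelial markers with a probe were well above background on every array, as were 5 to 8 of 11 neutrophil markers, and Ptprc, which encodes the leukocyte antigen CD45, was not above background with DSS and LIF in wild type. The Ptprc probe was dim on the other arrays too (-0.85 to -0.61). On the LIF-treated wild type array 9 of 10 T cell markers were above background.

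Of the 34 genes, 19 were well above background on all 4 arrays, 11 on some and 4 on none. The wild type DSS array detected 28 members, the labelled knockout with DSS 26, the labelled knockout with DSS and LIF 24, and wild type with DSS and LIF 21. Genes not above background on any array were the efferocytosis receptor Mertk, the haemoglobin scavenger receptor Cd163, the C1q chain C1qa and the lysosomal glycoprotein Gpnmb. The mannose receptor Mrc1 and the scavenger receptor Msr1 were above background by their brightest probe on the wild type DSS array alone. That Msr1 probe read -3.49 there, lower than on the other arrays, where it was not above background. The second Msr1 probe was above background in the labelled knockout with DSS alone, at -1.95. The dimmest level well above background was -1.49 on the LIF-treated wild type array and -3.79 on the wild type DSS array, so a member below background is bounded less tightly on the former. In the labelled knockout this level was -2.13 with DSS and -2.04 with DSS and LIF.

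**Figure D1:**
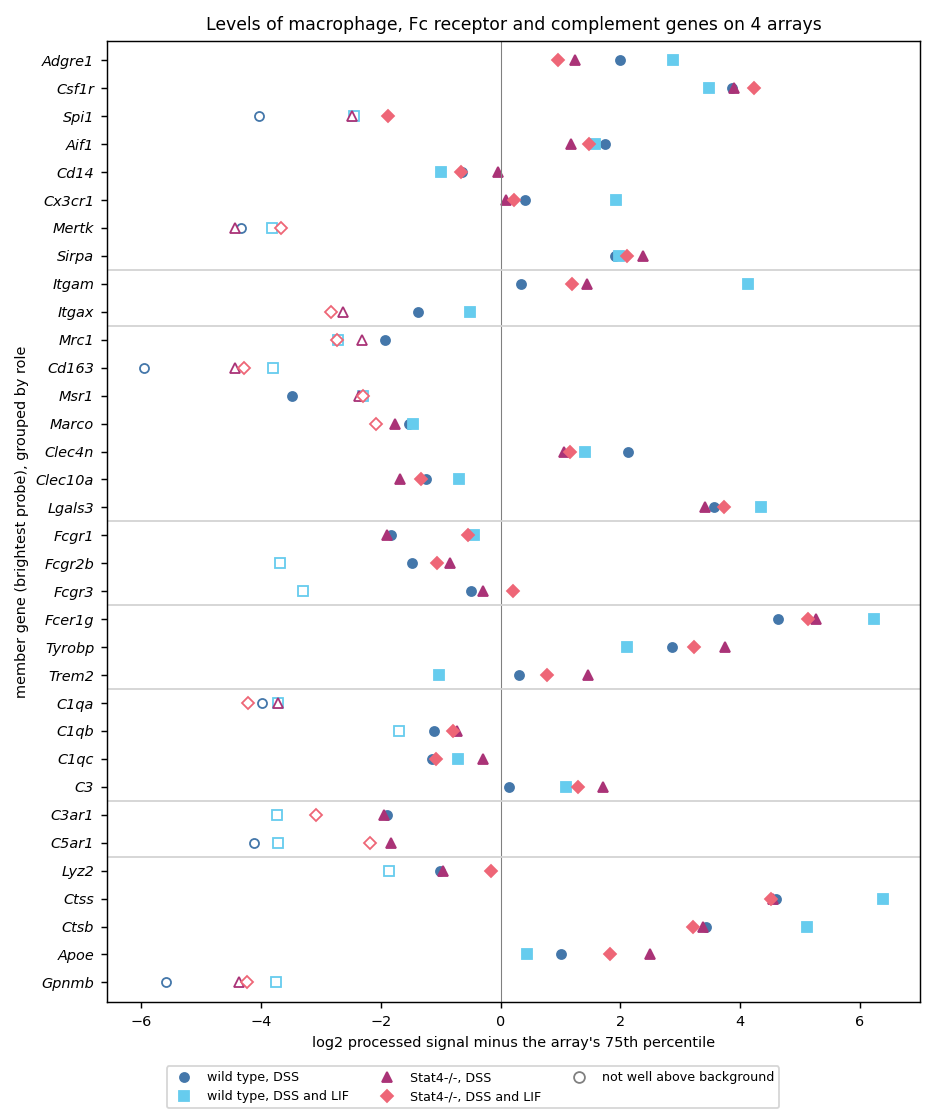
Level of the 34 members with a probe on each of the 4 arrays, as log2 processed signal minus the 75th percentile of the array, grouped by role, with open symbols for probes not well above background. Fcer1g, Ctss, Ctsb and Itgam sit highest with DSS and LIF in wild type, and Trem2, Tyrobp and Apoe sit lowest there.

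Of 8 lineage genes with a probe, 6 were above background on all 4 arrays. Csf1r, the receptor for the macrophage growth factor, had a log2 level of 3.86 in wild type with DSS, 3.48 with DSS and LIF, 3.90 in the labelled knockout with DSS and 4.23 with DSS and LIF. The levels thus spanned less than 2-fold. Adgre1, the adhesion receptor used as the standard mouse macrophage marker, read 1.99 and 2.88 in wild type and 1.24 and 0.96 in the labelled knockout (DSS, then DSS and LIF). By this probe it was highest with DSS and LIF in wild type and lower on both labelled knockout arrays, whereas its second probe read -0.74, -1.32, -1.0 and -0.69 over the same arrays and was lowest with DSS and LIF in wild type. Aif1, a calcium-binding protein of macrophages, stayed between 1.18 and 1.74, the inhibitory receptor gene Sirpa between 1.91 and 2.38, and the endotoxin co-receptor gene Cd14 between -1.0 and -0.04. Spi1, which encodes the myeloid transcription factor PU.1, was above background with DSS and LIF in the labelled knockout alone, at -1.88. The chemokine receptor gene Cx3cr1, high in resident gut macrophages, read 0.41 in wild type with DSS, 1.93 with DSS and LIF, and 0.09 and 0.22 in the labelled knockout. Wild type with DSS and LIF stood above the other 3 arrays.

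The integrin gene Itgam, which encodes CD11b of monocytes, macrophages and neutrophils, had a level of 0.35 in wild type with DSS, 4.13 with DSS and LIF, 1.45 in the labelled knockout with DSS and 1.20 with DSS and LIF. Its second probe gave -0.45, -1.15, 0.02 and 0.37 in the same order, so the 2 probes placed wild type with DSS and LIF at opposite ends. Itgax, which encodes CD11c of dendritic cells and many gut macrophages, read -1.39 and -0.51 in wild type and was not above background on either labelled knockout array.

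Among scavenger and lectin receptors, Clec4n, which encodes the fungal-mannan receptor dectin-2, read 2.12 in wild type with DSS, 1.42 with DSS and LIF, and 1.07 and 1.17 in the labelled knockout. The wild type DSS array was the highest of the 4. The galectin gene Lgals3 lay between 3.42 and 4.34, highest with DSS and LIF in wild type, and epithelial cells express it as well. The lectin receptor gene Clec10a lay between -1.68 and -0.70, and the scavenger receptor gene Marco was dim throughout, between -1.76 and -1.46 where it was above background.

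The 3 Fc receptors for IgG had different orders of arrays. Fcgr1, the high-affinity receptor, read -1.83 and -1.90 with DSS in wild type and labelled knockout, and -0.44 and -0.54 with DSS and LIF. Both LIF arrays were above both arrays without LIF. Fcgr3, an activating receptor for immune complexes, read -0.50 in wild type with DSS and -0.29 and 0.20 in the labelled knockout, and was not above background with DSS and LIF in wild type. Fcgr2b, the inhibitory receptor, read -1.48, -0.85 and -1.06 on those arrays and was likewise not above background with DSS and LIF in wild type. These receptor genes are close relatives in sequence, and whether each probe separates them was not tested.

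The adaptors and TREM2 differed in their order of arrays. Fcer1g, the common signalling chain of the activating Fc receptors, read 4.63 in wild type with DSS, 6.23 with DSS and LIF, 5.26 in the labelled knockout with DSS and 5.13 with DSS and LIF. Tyrobp, the adaptor of TREM2, read 2.86, 2.11, 3.75 and 3.22 in that order, and Trem2, a lipid-sensing receptor of macrophages, read 0.31, -1.02, 1.46 and 0.78. Wild type with DSS and LIF was thus the highest array for Fcer1g and the lowest for Tyrobp and Trem2. Apoe, the lipid carrier that binds TREM2, read 1.01, 0.45, 2.49 and 1.83 and had the same order of arrays as Trem2 and Tyrobp.

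The cysteine proteases of the lysosome were also highest with DSS and LIF in wild type. Ctss, which trims the invariant chain of MHC class II, read 4.61 in wild type with DSS, 6.39 with DSS and LIF, 4.54 in the labelled knockout with DSS and 4.51 with DSS and LIF. Ctsb read 3.42, 5.11, 3.38 and 3.22 in that order. For both genes wild type with DSS and LIF stood above 3 arrays that lay close together. Lyz2, the lysozyme of macrophages and neutrophils, read -1.0 in wild type with DSS and -0.97 and -0.16 in the labelled knockout, and was not above background with DSS and LIF in wild type. Lyz2 has a near-identical copy, Lyz1, and whether the probe separates them was not tested.

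Among complement genes, C3 read 0.14 in wild type with DSS, 1.09 with DSS and LIF, 1.71 in the labelled knockout with DSS and 1.29 with DSS and LIF, so that wild type with DSS was the lowest array. C3 is also made by epithelium and stroma. C1qc read -1.14, -0.71, -0.30 and -1.08 in that order and was highest in the labelled knockout with DSS. C1qb read -1.12 in wild type with DSS and -0.73 and -0.80 in the labelled knockout, and was not above background with DSS and LIF in wild type. The anaphylatoxin receptor genes were near the detection limit: C3ar1 was above background on both DSS arrays alone (-1.90 and -1.94), and C5ar1 on the labelled knockout array with DSS alone (-1.83).

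Promoter windows are shown for genes at both ends on the LIF-treated wild type array: Trem2 and Apoe, lowest there, and Fcer1g and Ctss, highest. Each runs from 250 bases before the transcript start to 50 after it, 5′ to 3′ on the gene's strand, from RefSeq (GRCm38.p6). Capitals mark GAGGAA or its reverse complement TTCCTC, the core letters bound by PU.1. The windows lie at chr17:48346151-48346450 (+ strand, Trem2), chr7:19699139-19699438 (− strand, Apoe, 1 of 3 windows of the gene), chr1:171234300-171234599 (− strand, Fcer1g) and chr3:95526536-95526835 (+ strand, Ctss).
Trem2: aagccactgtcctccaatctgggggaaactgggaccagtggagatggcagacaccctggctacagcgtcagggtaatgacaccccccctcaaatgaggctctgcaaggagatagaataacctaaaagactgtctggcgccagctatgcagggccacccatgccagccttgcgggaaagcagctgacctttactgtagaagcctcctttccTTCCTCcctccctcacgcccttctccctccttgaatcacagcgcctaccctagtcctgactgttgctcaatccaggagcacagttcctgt
Apoe: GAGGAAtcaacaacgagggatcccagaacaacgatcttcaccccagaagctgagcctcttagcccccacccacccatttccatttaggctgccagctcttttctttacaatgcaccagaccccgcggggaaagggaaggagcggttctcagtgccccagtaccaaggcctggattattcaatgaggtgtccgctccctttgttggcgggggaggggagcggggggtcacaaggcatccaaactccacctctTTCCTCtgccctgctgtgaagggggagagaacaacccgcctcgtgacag
Fcer1g: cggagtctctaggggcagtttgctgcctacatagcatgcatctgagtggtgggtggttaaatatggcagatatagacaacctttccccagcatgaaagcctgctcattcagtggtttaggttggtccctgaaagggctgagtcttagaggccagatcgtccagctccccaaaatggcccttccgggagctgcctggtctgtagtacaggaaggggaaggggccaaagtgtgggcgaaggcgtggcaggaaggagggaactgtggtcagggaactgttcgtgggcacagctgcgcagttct
Ctss: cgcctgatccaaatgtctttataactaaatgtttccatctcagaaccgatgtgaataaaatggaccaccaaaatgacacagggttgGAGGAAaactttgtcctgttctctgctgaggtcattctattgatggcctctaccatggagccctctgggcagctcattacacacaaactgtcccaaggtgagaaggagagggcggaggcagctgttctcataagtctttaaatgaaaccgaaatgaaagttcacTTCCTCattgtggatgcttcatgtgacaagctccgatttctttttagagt
The Trem2 window held 1 match, the Apoe and Ctss windows 2 each and the Fcer1g window 0, so genes at the same end did not share a count of matches. Searched on both strands, GAGGAA occurred in 13 of the 25 members that have a window (52%) and in 31.3% of 27025 genes with a window. The longer GAGGAAGT, which contains it, occurred in 2 of 25 members (8%), Ctss among them, and in 3.69% of genes. Letters in a window do not show binding, and no binding data are part of these arrays.

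The comparison of labelled knockout with wild type under DSS asks how macrophage genes differ with Stat4 in inflamed gut. Complement C3, Apoe, Trem2 and Itgam were higher on the labelled knockout array, and Clec4n was lower. C3 differed 2.98-fold (1.58 ± 0.21), Apoe 2.80-fold (1.48 ± 0.20), Trem2 2.23-fold (1.15 ± 0.21) and Itgam 2.15-fold (1.1 ± 0.21), whereas Clec4n was 2.08-fold lower (-1.05 ± 0.21). Thus 4 of 25 measured members were at least 2-fold higher, beside 13.2% of all 10529 measured genes, and 1 was at least 2-fold lower, beside 6.94%. The members' median difference was 0.04, and that of all genes 0.07. With normexp background correction (offset 50) the medians were 0.27 and 0.003, with 0 members at least 2-fold higher beside 3.19% of genes and 1 lower beside 7.83%.

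Above 0 were 14 of 25 measured members and 5718 of 10529 genes. By role, the 3 adaptor and TREM2 genes were all above 0 (Fcer1g 0.63, Tyrobp 0.89, Trem2 1.15), as were the 3 measured complement components (C1qb 0.39, C1qc 0.84, C3 1.58). The 4 measured scavenger and lectin receptors were all below 0, from -1.05 for Clec4n to -0.14 for Lgals3. Of these Marco (-0.24 ± 0.31) and Lgals3 lay within their errors, and with normexp correction Marco (0.25) and Clec10a (0.27) were above 0. Lineage genes were split, with Cd14 at 0.61 and Adgre1 at -0.76, and Csf1r at 0.04. For Ctss (-0.06), Ctsb (-0.04) and Lyz2 (0.04) each difference was smaller than its own error. C5ar1, not above background in wild type, was at least 3.87-fold higher in the labelled knockout, and Itgax at least 1.67-fold lower. Bounds of any size went upwards for 1 of 34 members and downwards for 2, beside 145 and 1035 of 20659 genes.

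Second probes qualified 2 of these differences. Itgam had 3 measured probes here, at 1.1, 0.48 and 1.11, all of 1 sign. For C3 the second probe differed by 0.18 ± 0.22 where the brightest differed by 1.58. With normexp correction all 4 higher genes kept their sign but fell below 2-fold, to between 0.55 for Itgam and 0.92 for C3. Csf1r, Ctss and Ctsb then differed by -0.54, -0.64 and -0.53, and Fcer1g by 0.01.

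**Figure D2:**
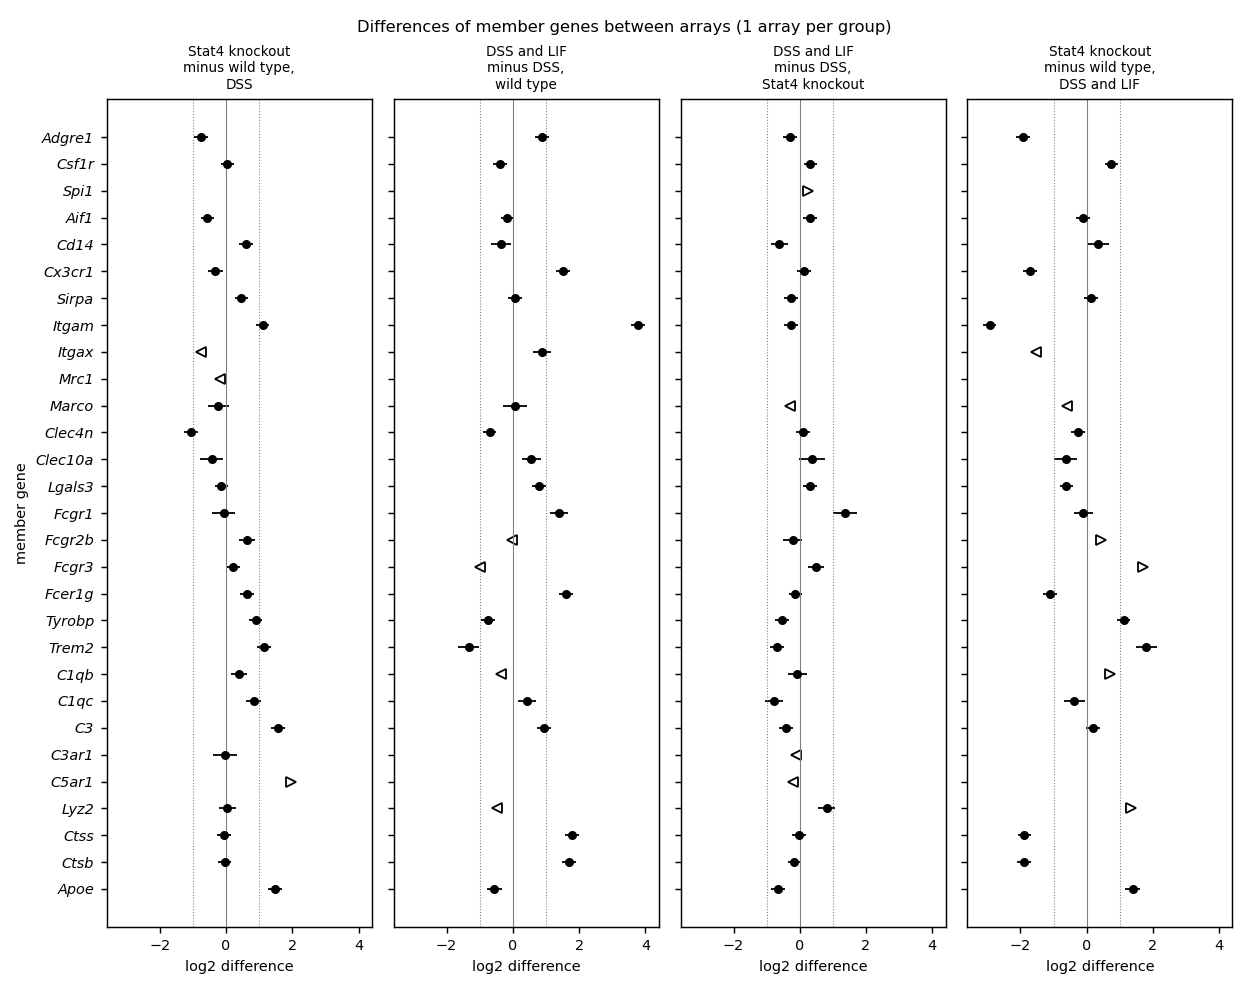
Log2 difference of each member in the 4 comparisons, with points for measured differences and their within-array error and arrows for bounds. Members crowd around 0 for LIF in the labelled knockout, and Itgam, Ctss, Ctsb and Fcer1g lie far from 0, in opposite directions, in both comparisons that use the LIF-treated wild type array.

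Another 114 genes of the same pathways with a probe were counted in the same comparison. The labelled knockout was at least 2-fold higher for 23 of 87 measured and at least 2-fold lower for 4, and their median difference was 0.47, beside 13.2%, 6.94% and 0.07 for all genes. Fc receptor and ITAM signalling genes made up 8 of the higher ones out of 22 measured, with 0 lower, and complement genes 4 of 16, with 0 lower. Of 22 lysosomal genes 6 were higher and 1 lower, and of 27 macrophage and monocyte genes 5 were higher and 3 lower. Chil3, a chitinase-like protein of macrophages and neutrophils, was 20.1-fold higher, complement factor D (Cfd), also abundant in fat, 10.4-fold, Trem3, a receptor that pairs with Tyrobp, 5.5-fold, and the cholesterol exporter Abca1 4.54-fold. Cfd read -3.39 in wild type with DSS, near the dimmest level above background of that array (-3.79). Retnla, made by alternatively activated macrophages, was 6.06-fold lower, the matrix proteoglycan gene Vcan 2.11-fold, the fatty-acid binding protein gene Fabp5 2.1-fold and the transcription factor gene Maf 2.02-fold. With normexp correction the counts were 7 higher and 4 lower and the median 0.28, beside 3.19%, 7.83% and 0.003 for all genes, and Fc receptor and ITAM genes then had 1 higher and 1 lower, complement genes 2 higher, lysosomal genes 2 higher and 1 lower, and macrophage and monocyte genes 2 higher and 2 lower.

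Markers of other cells moved with this comparison. Dendritic cell markers summed to 8.54 in wild type with DSS and 9.32 in the labelled knockout with DSS (median 0.65, 5 of 6 measured above 0). B and plasma cell markers summed to 7.45 and 7.14, although their median was 0.64, with 2 of 7 at least 2-fold higher. With normexp correction these medians were 0.38 and 0.49, and B and plasma cell markers had 0 higher and 1 lower. Neutrophil markers summed to a log2 level of 9.11 in wild type with DSS and 11.65 in the labelled knockout with DSS, with 8 of 11 above background on both and Ltf and Cxcr2 below it on both. Their median difference was 2.80 over 7 measured ones, of which 5 reached 2-fold upwards. Stromal and endothelial markers summed to 2.52 and 3.98 (9 and 8 of 10 above background, Pdgfra on neither array). T cell markers were at 5.08 and 4.43 (10 and 9 of 10 above background), and NK cell markers at 5.23 and 3.75 (6 and 5 of 6, with Ncr1 below it in the labelled knockout). Mast cell and eosinophil markers summed to 2.71 and 2.11 (6 and 5 of 8, Epx and Prg2 on neither). Epithelial markers summed to 7.29 and 7.5, but 8 of 9 measured ones were below 0 (median -0.57). Of these markers 2 were at least 2-fold lower and 0 higher. The part of all these lists in the member differences was not tested.

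LIF in wild type was compared through the array that stood apart. Itgam was 13.7-fold higher with LIF (3.78 ± 0.21) by its brightest probe. Ctss was 3.46-fold higher (1.79 ± 0.20), Ctsb 3.22-fold (1.69 ± 0.20), Fcer1g 3.03-fold (1.60 ± 0.20), Cx3cr1 2.87-fold (1.52 ± 0.21) and Fcgr1 2.62-fold (1.39 ± 0.27). Trem2 was 2.51-fold lower (-1.33 ± 0.32). These are 6 of 21 measured members at least 2-fold higher, beside 34.4% of 8983 measured genes, and 1 at least 2-fold lower, beside 13.7%. The members' median was 0.56 and that of all genes 0.57, and with normexp correction 0.31 and 0.06.

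The adaptors lay on opposite sides of that median. Tyrobp was 1.68-fold lower (-0.75 ± 0.21) and Apoe 1.48-fold lower (-0.56 ± 0.22), while Fcer1g was higher. Csf1r (-0.38), Aif1 (-0.16), Cd14 (-0.35) and Sirpa (0.07) were below 2-fold in either direction, and so was Clec4n (-0.70). Genes not above background with LIF had only bounds: Fcgr3 was at least 1.99-fold lower, Lyz2 at least 1.4-fold, C1qb at least 1.3-fold and Fcgr2b at least 1.01-fold. Bounds of any size went downwards for 4 of 34 members and upwards for 0, beside 1465 and 253 of 20659 genes. With C3 at 0.95 and C1qc at 0.43, the complement components did not share a direction with C1qb.

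Second probes bore directly on these values. The second Itgam probe was lower with LIF (-0.69 ± 0.31) and the second Adgre1 probe too (-0.58 ± 0.33), against 3.78 and 0.88 for the brightest ones, whereas both measured Csf1r probes gave nearly the same difference (-0.38 and -0.36). Across genes with at least 2 measured probes, the differences of the brightest and the next probe had r = 0.10 in this comparison (1292 genes) and r = 0.38 between genotypes under DSS (1833 genes). With normexp correction only Itgam stayed at least 2-fold higher (2.18), Ctss, Ctsb and Fcer1g differed by 0.51, 0.44 and 0.36, and Trem2 by -0.29. Csf1r (-1.51), Tyrobp (-1.33) and Clec4n (-1.11) were then at least 2-fold lower, and Adgre1 turned to -0.03.

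**Figure D3:**
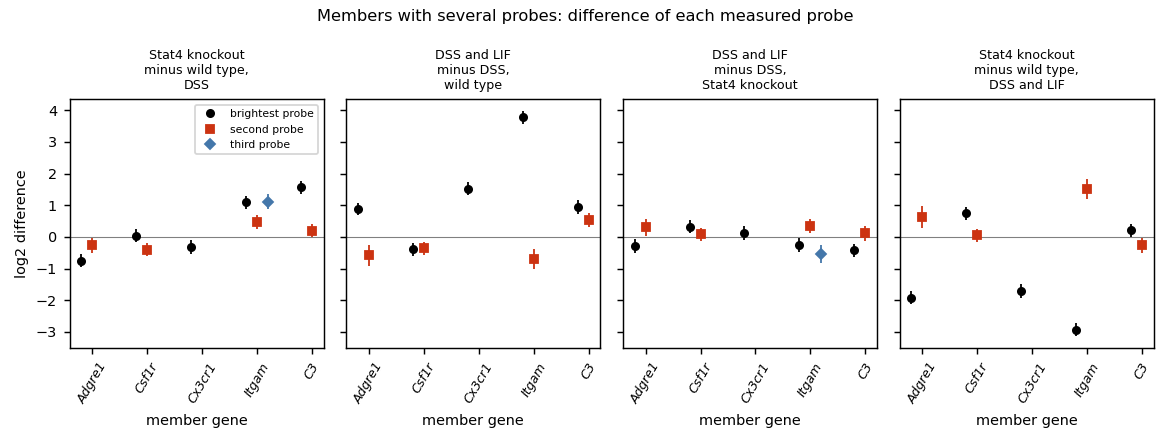
Log2 difference of each probe of the members that have several probes, by comparison, with the within-array error. Probes of Csf1r lie close together for LIF in wild type, whereas those of Itgam and Adgre1 fall on both sides of 0 in the comparisons that use the LIF-treated wild type array.

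LIF in wild type went with a level at least 2-fold higher for 22 of 70 further pathway genes and at least 2-fold lower for 9. Their median difference was 0.32, and all genes had 34.4%, 13.7% and 0.57, so the shares lay near those of all genes. The complement genes Hc, which encodes C5, and C2, a component of the classical C3 convertase, were 12-fold and 10.6-fold higher, Retnla 5.14-fold and the NADPH oxidase gene Cybb 5.04-fold. Hc read -3.35 and Cybb -2.78 in wild type with DSS, where the dimmest level above background was -3.79. Lower were Maf (6.04-fold), the saposin precursor gene Psap (4.31-fold), Vcan (3.83-fold) and the transcription factor gene Irf8 (2.93-fold). Psap read -1.41 with LIF, near the dimmest level above background of that array (-1.49). Complement genes had 6 of 14 higher and 0 lower, Fc receptor and ITAM genes 6 of 17 higher and 2 lower, macrophage and monocyte genes 6 of 22 higher and 4 lower, and lysosomal genes 4 of 17 higher and 3 lower. With normexp correction the counts turned to 7 higher and 13 lower of 70 and the median to -0.02, beside 8.88%, 17.2% and 0.06 for all genes. Fc receptor and ITAM genes then had 0 higher and 3 lower (2 and 2 with median scaling), complement genes 3 higher and 0 lower, macrophage and monocyte genes 3 and 5, and lysosomal genes 1 and 5. T cell markers summed to 5.08 without LIF and 5.97 with it, NK cell markers to 5.23 and 6.42, and neutrophil markers to 9.11 and 8.58 (8 and 5 of 11 above background). Mast cell and eosinophil markers, of which mast cells also carry Fcer1g, summed to 2.71 and 3.44, with 4 of 5 measured ones at least 2-fold higher (median 1.07) and Epx and Prg2 below background on both arrays. With normexp correction this list had 0 higher and 1 lower (median 0.47). The medians of T cell, NK cell and neutrophil markers were 0.59, 0.75 and -0.45, and with normexp correction 0.005, -0.004 and -1.80. Epithelial markers summed to 7.29 and 8.10 (9 of 9 above background), with 1 at least 2-fold higher and 3 lower (median 0.41). Stromal markers summed to 2.52 and 2.24, with 1 of 7 measured at least 2-fold higher and 1 lower (median -0.42, and 0.07 with normexp correction). The part of all these lists in the member differences was not tested.

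LIF in the labelled knockout left few members 2-fold apart. Fcgr1 was 2.57-fold higher (1.36 ± 0.35), which is 1 of 23 measured members at least 2-fold higher, beside 3.22% of 9781 genes, and 0 were at least 2-fold lower, beside 3.07%. The members' median was -0.13 and that of all genes -0.01. The next largest differences were Lyz2, 1.75-fold higher (0.81 ± 0.27), and C1qc, 1.72-fold lower (-0.78 ± 0.28). Trem2 (-0.68), Apoe (-0.66), Cd14 (-0.62) and Tyrobp (-0.53) were lower with LIF, and the 3 measured complement components were all below 0, although C1qb (-0.07) lay within its error and was at 0.17 with normexp correction. Below 0 were 14 of 23 measured members and 4985 of 9781 genes. Ctss (-0.03), Ctsb (-0.16) and Fcer1g (-0.13) differed by less than their errors. Fcgr1 had a single probe, and its difference was 0.46 with normexp correction, where Tyrobp reached -1.06.

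Of 84 further pathway genes, Vcan alone was at least 2-fold higher with LIF in the labelled knockout (2.35-fold), and Chil3 (2.71-fold) and Abca1 (2.51-fold) were lower, beside 3.22% and 3.07% of all genes. Chil3 and Abca1 were among those higher in the labelled knockout under DSS, and both comparisons share that array. With normexp correction 0 were higher and 11 lower, beside 0.0614% and 8.9% of all genes. Neutrophil markers summed to 11.65 and 11.28 without and with LIF, although 5 of 8 measured ones were above 0 (median 0.04). Stromal markers summed to 3.98 and 3.35, and all 7 measured ones were below 0 (median -0.61). With normexp correction the medians were -0.68 and -0.24. The part of both lists was not tested.

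Under DSS and LIF, the labelled knockout and wild type differed in opposite directions for 2 groups of members. Trem2 was 3.49-fold higher in the labelled knockout (1.81 ± 0.32), Apoe 2.62-fold (1.39 ± 0.22) and Tyrobp 2.17-fold (1.12 ± 0.21). Itgam was 7.63-fold lower (-2.93 ± 0.21), Adgre1 3.79-fold (-1.92 ± 0.21), Ctsb 3.72-fold (-1.89 ± 0.20), Ctss 3.68-fold (-1.88 ± 0.20), Cx3cr1 3.28-fold (-1.71 ± 0.22) and Fcer1g 2.15-fold (-1.10 ± 0.20). These are 3 of 19 measured members at least 2-fold higher, beside 14.2% of 8348 genes, and 6 at least 2-fold lower, beside 31.3%. Both shares lay near those of all genes. The median was -0.25 for members and -0.45 for all genes.

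Bounds add 3 members past 2-fold in this comparison: Fcgr3 at least 3.24-fold and Lyz2 at least 2.52-fold higher in the labelled knockout, and Itgax at least 2.9-fold lower. Bounds of any size went upwards for 4 of 34 members and downwards for 2, beside 1586 and 855 of 20659 genes. C1qb was at least 1.61-fold and Fcgr2b at least 1.35-fold higher, while Fcgr1 (-0.10), C3 (0.20) and C1qc (-0.37) were closer to 0. Second probes again gave the other sign, at 1.52 for Itgam and 0.63 for Adgre1. With normexp correction the 6 lower members were at -0.83 (Cx3cr1) to -2.16 (Itgam), and the 3 higher ones at 0.59 (Tyrobp), 0.50 (Apoe) and 0.38 (Trem2). With each array scaled to its median, Fcer1g was at -0.96. Further pathway genes split into 14 at least 2-fold higher and 11 lower out of 66, and their median was -0.01, beside 14.2%, 31.3% and -0.45 for all genes. With normexp correction they had 4 higher and 6 lower, beside 5.28% and 14.5%. The chaperone clusterin (Clu, 6.42-fold), Psap (5.42-fold), the lectin receptor gene Clec4d (5.21-fold) and Fabp4 (5.06-fold) were higher, and Retnla (28.3-fold), C2 (11.3-fold), the lysosomal membrane gene Lamp2 (4.47-fold) and the complement receptor gene Cr2 (4.29-fold) lower. In wild type Clu read -1.31 and Psap -1.41, near the dimmest level above background of that array (-1.49). Neutrophil markers summed to 8.58 in wild type and 11.28 in the labelled knockout with DSS and LIF, and NK cell markers to 6.42 and 3.21. Stromal markers summed to 2.24 and 3.35 (4 of 7 measured at least 2-fold higher, median 1.16), T cell markers to 5.97 and 4.4 (4 of 9 lower, median -0.95), mast cell and eosinophil markers to 3.44 and 2.22 (3 of 5 lower, median -2.11) and epithelial markers to 8.10 and 7.37 (3 of 9 higher and 1 lower, median -0.40). With normexp correction stromal markers had 0 higher and 0 lower (median 0.25), and mast cell and eosinophil markers 1 lower (median -0.53). T cell markers then had 3 lower (median -0.64), neutrophil markers 4 of 5 higher and NK cell markers 3 of 3 lower. The part of all these lists in the member differences was not tested.

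The LIF difference of each member was then set side by side in both genotypes. For 19 members measured on all arrays, 8 had a LIF difference that was lower in the labelled knockout by at least 1 than it was in wild type, beside 33.4% of 8039 genes, and 0 at least 1 higher, beside 16.7%. The median over members was -0.33 and over all genes -0.53. Fcgr1 had nearly equal LIF differences in either genotype (1.39 and 1.36, wild type first), as had Apoe (-0.56 and -0.66) and Tyrobp (-0.75 and -0.53). With normexp correction the Fcgr1 difference was 0.86 in wild type, and smaller in the labelled knockout, as given above. Ctss (1.79 and -0.03), Ctsb (1.69 and -0.16) and Fcer1g (1.60 and -0.13) differed with LIF in wild type alone by more than their errors. These differences between genotypes have no test and rest on the array that stood apart.

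Trem2, Tyrobp and Apoe shared 1 order of arrays, from labelled knockout with DSS down through labelled knockout with DSS and LIF and wild type with DSS to wild type with DSS and LIF. This order was picked after the values were seen. It was that of 3 of 19 members and of 6.32% of 8039 genes on all arrays. The summed neutrophil markers (11.65, 11.28, 9.11 and 8.58) and the summed stromal markers (3.98, 3.35, 2.52 and 2.24) had the same order, and their part in it was not tested. For neutrophils this holds for the sums alone. Between the labelled knockout arrays 5 of 8 measured neutrophil markers were higher with LIF (median 0.04). Between the wild type arrays 2 of 7 measured stromal markers were higher with LIF (median -0.42, and 0.07 with normexp correction). Trem2, Tyrobp and Apoe kept the direction of both genotype differences in each of the 7 alternatives run. Each has 1 probe, above background on all arrays, so both background filters and the mean over probes could not change its values.

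**Figure D4:**
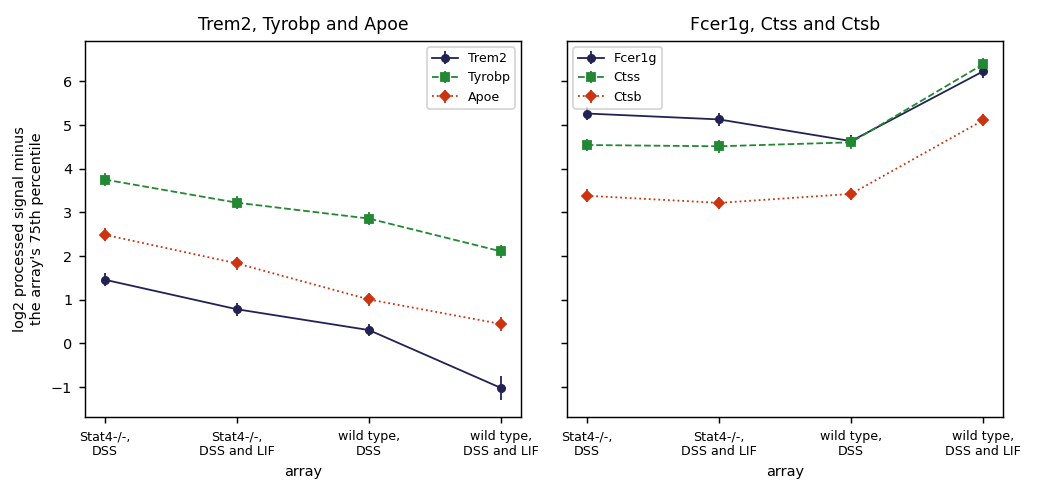
Log2 level of selected members on the 4 arrays, with lines joining the values of a gene and no order implied between arrays. Trem2, Tyrobp and Apoe are lowest and Fcer1g, Ctss and Ctsb highest with DSS and LIF in wild type.

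**Figure D5:**
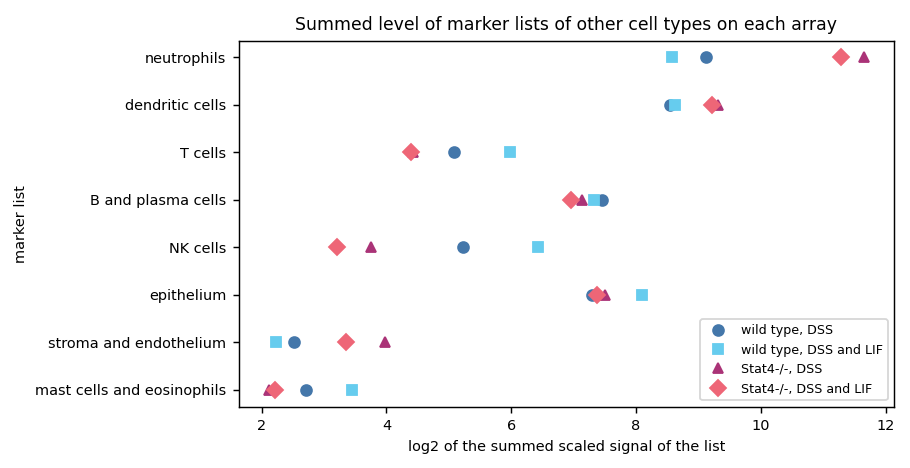
Summed level of marker lists of other cell types on the 4 arrays, as log2 of the summed scaled signals. Neutrophil and stromal lists are highest in the labelled knockout with DSS, NK and T cell lists highest with DSS and LIF in wild type.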

How the data were processed

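RNA of lamina propria lymphocytes was hybridized to 4 one-colour (Cy3) Agilent arrays. The authors deposited spot intensity values from Agilent Feature Extraction (version 11.0.1.1 per the file headers, 9.1 per the submitters' processing notes), background-subtracted per the file headers, and a table of log2 values with medians of 3.31, 2.54, 3.31 and 3.31, whose normalization the sources used here do not state. Its Pearson correlation with log2 scanner values was 0.971 to 0.992, so higher is brighter.

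Here, log2 processed signals minus each array's 75th percentile were used, and control and outlier spots were left out. RefSeq accessions named 27234 of 39429 probes (GRCm38.p6, names only, since the array design uses another build). The brightest probe by mean level stood for a gene. A gene was measured where that probe was well above background (at least 50% of its spots) on both arrays. A gene below it on 1 array got a bound, set by the dim probe's own level or, if higher, the dimmest level above background on that array. Genes were called at 2-fold. No saturated probe was found. The choice of probe, the 2-fold calls and the bounds were tested on simulated data. Their noise was lower than the errors here and all probes of a gene changed alike, so disagreeing probes were not covered. The averaging of spots, the normexp correction and the promoter search were not part of that test.

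Named were all members and, per comparison and direction, the 4 further pathway genes with the largest measured difference of at least 2-fold. Members and lists were chosen with earlier results of these data known. Tools were Python 3.11.15, numpy 2.4.6, pandas 2.3.3 and limma 3.58.1 (R 4.3.3). Alternatives were normexp with offset 50, quantile and median scaling, 2 background filters, the mean over probes, the authors' table and, added after seeing the data, probes chosen without the LIF-treated wild type array.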

Additional observations from a re-analysis of the deposited data

Results flagged for a closer look

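The LIF difference had opposite signs in wild type and labelled knockout for 11 of 19 members measured on all arrays, beside 53.5% of 8039 genes. In 5 of the 11 both differences were larger than their within-array errors. These were Itgam, at 3.78 in wild type and -0.25 in the labelled knockout (knockout minus wild type -4.04), C3 at 0.95 and -0.42 (-1.37), C1qc at 0.43 and -0.78 (-1.21), Adgre1 at 0.88 and -0.28 (-1.17) and Csf1r at -0.38 and 0.32 (0.70). In the other 6 at least 1 of the differences lay within its error, and knockout minus wild type was -1.85 for Ctsb, -1.82 for Ctss, -1.73 for Fcer1g, 0.80 for Clec4n, 0.46 for Aif1 and -0.33 for Sirpa. None of these differences between genotypes was tested, since each group has 1 array, and all of them use the LIF-treated wild type array. Second probes gave -0.69 and 0.35 for Itgam, -0.58 and 0.31 for Adgre1, 0.55 and 0.11 for C3, and -0.36 and 0.09 for Csf1r (wild type first).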

How the results depend on the processing

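No paired analysis was possible because each group has 1 array. Of 22 member differences of at least 2-fold, all 22 kept their sign in each of 7 alternatives, and still reached 2-fold in 7 cases with normexp, 18 with the mean over probes, 21 with median scaling and 22 with quantile scaling, both filters and the authors' table. A filter sets which genes are measured and leaves a measured value as it was, so both filters could not change these signs. The mean over probes can change only members with several probes. Over 88 member differences, 68 kept their sign with normexp. With normexp, the labelled knockout against wild type under DSS had a member median of 0.27 (all genes 0.003) and 0 members at least 2-fold higher (3.19%), LIF in wild type a median of 0.31 (0.06) with 1 higher (8.88%) and 3 lower (17.2%), LIF in the labelled knockout 0 higher (0.0614%) and 1 lower (8.9%), and the genotype comparison with LIF 0 higher (5.28%). Without a background filter, on 34 members, the counts were 9 higher (28.5% of all genes) and 2 lower (9.8%), 10 higher (42.7%) and 4 lower (16.3%), 1 lower (5.63%), and 7 higher (16.9%) in the same comparisons, so the shares of all genes grew in these as well. The mean over probes left 2 higher (12.6%) for genotype under DSS. Choosing probes without the LIF-treated wild type array, added after the data were seen, changed the probe taken for no member. The 48 differences it covers are those of genotype under DSS and of LIF in the labelled knockout, which do not use that array. Their kept sign was therefore fixed in advance. The cause of these changes was not tested, apart from the added genes when no filter was set. The median of all genes for LIF in wild type was 0.57, against 0.06 with normexp, 0.51 with quantile and 0.43 with median scaling, and for genotype under DSS and LIF -0.45, -0.17, -0.44 and -0.31. The LIF-treated wild type array had the lowest share of probes well above background (37.6%), and its part in these changes was not tested.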
